A study of Macaca mulatta with 28 samples.

Results

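The carriers described here are the genes of the mitochondrial carrier family that bear an SLC25A symbol. They were chosen by name, as symbols made of SLC25A and a number, with a value of at least 10 normalized reads in at least 5 of 28 libraries. Of 45 such genes listed, 41 met the minimum, among 13022 of 15521 genes in all. The carriers just inside the minimum were SLC25A41, which reached 10 in 7 libraries, SLC25A21 in 23 and SLC25A45 in 27, and the other members reached it in all 28. Outside it were SLC25A31, whose highest library was at 9.22 normalized reads, SLC25A2 (4.49), SLC25A47 (2.82) and SLC25A52 (1.75).

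Mitochondrial carriers are small proteins of the inner mitochondrial membrane that exchange metabolites between the cytosol and the matrix. They bring ADP and phosphate in for ATP synthesis and let ATP out, and they carry the aspartate, glutamate, malate and citrate that link glycolysis, the tricarboxylate cycle and transmitter synthesis. In brain, the aspartate/glutamate carrier SLC25A12 is known as the neuronal member of the malate-aspartate shuttle, and the glutamate carriers SLC25A18 and SLC25A22 feed glutamate to matrix enzymes. Several members serve another membrane or have no settled substrate, such as SLC25A17 in peroxisomes and SLC25A46 in the outer mitochondrial membrane.

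RNA came from a dissected tissue block holding the central nucleus of the amygdala (CeA) of 28 male rhesus macaques, each sequenced as 1 library. All of them had been induced to drink 4% (w/v) ethanol over about 90 days and could then take it freely for 22 hours a day over more than 12 months. The labels give 6 very heavy drinkers (VHD), 7 heavy drinkers (HD), 5 binge drinkers (BD) and 10 low drinkers (LD). VHD stands for a daily average above 3 g/kg with intake over 4 g/kg on 10% of days or more, HD for 3 g/kg or more on 20% of days or more, and BD for 2 g/kg or more on 55% of days or more with blood ethanol of 80 mg/dl reached each year. LD animals fit none of these, and an ethanol-free group was not among the samples. VHD and HD animals together (13) are called heavy and BD and LD animals together (15) low. The animals belong to cohort 4 (8 animals, mean age 8.24 years at induction), 5 (7 animals, 5.63 years), 7a (8 animals, 4.18 years) and 7b (5 animals, 5.69 years). Ages at the end were 9.98, 7.15, 5.7 and 7.18 years in the same order. Cohort 5 held heavy animals only, cohorts 4 and 7b held 1 heavy animal each, and VHD and LD animals met only in cohort 7a. The block is a mixture of cells: markers of CeA and striatal neurons (10 of 10 past the minimum) summed to 5953 to 48923 normalized reads per library. Libraries held 1910514 to 25928489 reads over exons (median 16444833), with BD animal 1, LD animal 1 and HD animal 1 the shallowest.

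Carriers of adenine nucleotides and phosphate stood at the top of the family. Levels were compared as normalized reads per kilobase of listed exon, and each is given as mean ± SD over 28 animals. SLC25A3, the phosphate carrier, had 2747 ± 230. Among the ADP/ATP translocases, SLC25A6 had 2564 ± 233, SLC25A4 1417 ± 144 and SLC25A5 1373 ± 144, so that SLC25A4 and SLC25A5 did not differ beyond their spread. SLC25A6 made up 47.9% ± 2.3 of the translocase level, SLC25A4 26.4% ± 1.4 and SLC25A5 25.7% ± 2.2. These 3 genes are close in sequence, and the sources used here do not state how reads were split between such copies. The ATP-Mg/phosphate carriers, which set the size of the matrix adenine nucleotide pool, were lower, at 487 ± 92.7 for SLC25A23, 297 ± 30.0 for SLC25A25, 32.1 ± 8.6 for SLC25A24 and 4.58 ± 2.3 for SLC25A41.

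Next came the carriers of glutamate, aspartate, dicarboxylates and citrate. SLC25A11, the oxoglutarate carrier of the malate-aspartate shuttle, had 815 ± 110 normalized reads per kilobase and SLC25A12 744 ± 63.0. SLC25A22, a glutamate carrier, had 729 ± 358, SLC25A1, the citrate carrier, 632 ± 454, and SLC25A18, the other glutamate carrier, 537 ± 111. The wide spread of SLC25A22 and SLC25A1 leaves their places in this order unresolved, and the genes were not compared within animals. SLC25A13, the second aspartate/glutamate carrier, had 162 ± 53.7, SLC25A10, the dicarboxylate carrier, 92.9 ± 13.7 and SLC25A21, the oxoadipate carrier, 4.72 ± 2.0. SLC25A12 made up 82.3% ± 5.2 of the aspartate/glutamate pair, and SLC25A22 55.2% ± 12.5 of the glutamate pair.

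Nucleotide and cofactor carriers ranged over a wide span of levels. SLC25A26, which brings S-adenosylmethionine into the matrix, had 647 ± 109 normalized reads per kilobase. The pyrimidine nucleotide carriers had 509 ± 74.5 (SLC25A33) and 327 ± 25.8 (SLC25A36), so that SLC25A33 held 60.6% ± 4.6 of that pair. SLC25A32, a folate and flavin carrier, had 483 ± 66.5 and SLC25A51, the NAD carrier, 372 ± 25.4. SLC25A51 has a near-identical copy in SLC25A52, which makes its reads uncertain in the same way. The peroxisomal SLC25A17 had 250 ± 39.6, the coenzyme A carrier SLC25A42 211 ± 31.8 and SLC25A53, for which no role is given here, 13.3 ± 1.6.

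Among amino acid and carnitine carriers, SLC25A44, which carries branched-chain amino acids, led with 387 ± 40.9 normalized reads per kilobase. SLC25A38, the glycine carrier needed for haem synthesis, had 299 ± 30.4 and SLC25A20, the carnitine/acylcarnitine carrier, 129 ± 23.9. The basic amino acid carrier SLC25A29 had 64.4 ± 13.4, SLC25A45 31.6 ± 15 and the ornithine carrier SLC25A15 28.8 ± 6.2. Of the iron importers, mitoferrin 2 (SLC25A28, 264 ± 29.3) held 86.3% ± 2.9 of the pair and mitoferrin 1 (SLC25A37, 42.2 ± 11.8) the rest. The glutathione carriers had 361 ± 48.4 (SLC25A39) and 181 ± 26.7 (SLC25A40). The relatives of the uncoupling proteins had 392 ± 49.9 (SLC25A14), 381 ± 74.5 (SLC25A27) and 165 ± 25 (SLC25A30). SLC25A46, linked to mitochondrial fission, had 684 ± 155, and the orphan carriers SLC25A43 and SLC25A35 had 56.9 ± 8.3 and 47.4 ± 9.3.

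**Figure D1:**
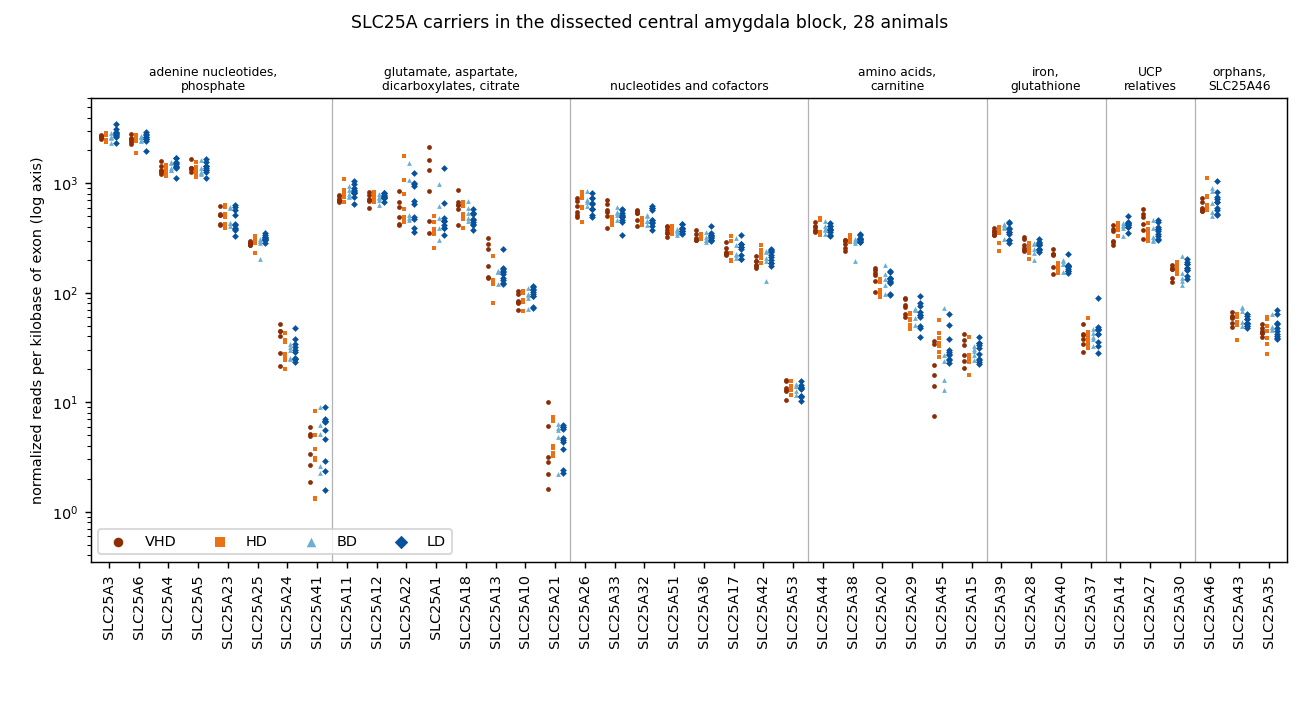
Level of 40 of the 41 SLC25A carriers in normalized reads per kilobase of listed exon (log axis), by role; each point is 1 animal, with VHD, HD, BD and LD animals side by side within a gene. SLC25A3 and SLC25A6 sit highest, SLC25A21 and SLC25A41 lowest, and SLC25A1 and SLC25A22 are spread widely in all categories but HD for SLC25A1 (415 to 809 normalized reads).

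Most carriers varied little between animals. The SD of log2 values had a median of 0.22 over the 41 carriers and 0.27 over the 13022 genes. Against genes of like mean, 12 of the 41 lay above the median SD and 3 at or above the 90th percentile. SLC25A51 was the steadiest, with an SD of 0.10 and a range of 361 to 479 normalized reads. The 3 variable members were SLC25A1 (SD of 0.77, 98.8th percentile), SLC25A22 (0.63, 97.7th percentile) and SLC25A13 (0.43, 90.4th percentile). SLC25A1 ranged from 415 to 3435 normalized reads, SLC25A22 from 873 to 4239 and SLC25A13 from 256 to 987.

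No carrier passed the test between heavy and low drinkers. By limma with cohort as a term, 0 of 41 carriers had an adjusted p under 0.05, against 0.0% of all genes, and the adjusted p was 0.998 or more. Without adjustment, 2 of 41 had a p under 0.05, against 4.18% of all genes. edgeR and DESeq2 on recovered reads called 0 carriers. The estimate was above 0 in 17 carriers and below it in 24 (50.0% of all genes were above), with a median log2 difference of −0.05 beside 0.00 over all genes. For 39 of the 41 the 95% interval lay within a 2-fold difference in either direction, and the ranges of heavy and low drinkers overlapped for all 41. The shares of all genes for the intervals and the overlaps were not counted, so neither sets the carriers apart. Cohort 5 held no low animals, so its 7 heavy animals did not enter the fitted difference, which rests on cohorts 4, 7a and 7b. Means, ranges and counts of heavy drinkers, here and below, are over all 13, so they can differ from the fitted fold.

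The carriers with the smallest p were a glutathione carrier and an ADP/ATP translocase. SLC25A39 ran between 382 and 634 normalized reads (median 572) in heavy drinkers and between 447 and 696 (median 606) in low drinkers. It lay below the low mean in 9 of 13 heavy animals, with a fitted fold of 0.852 (95% interval 0.739 to 0.983, unadjusted p = 0.0293). The log2 difference was −0.55 in cohort 4, −0.18 in 7a and −0.00 in 7b, and cohort 4 has a single heavy animal, which was also the lowest of all 28. SLC25A6 ran between 3230 and 4794 normalized reads (median 4319) in heavy drinkers and between 3351 and 5015 (median 4478) in low drinkers, a fold of 0.900 (0.816 to 0.992, unadjusted p = 0.0344). Its log2 difference was −0.39, −0.07 and −0.10 in the same cohorts, and its lowest library was again that heavy animal of cohort 4, HD animal 1. SLC25A35, an orphan carrier, averaged 124 ± 24.4 normalized reads in heavy and 137 ± 26.1 in low drinkers, a fold of 0.818 (0.669 to 1.0). SLC25A4 averaged 3790 ± 351 in heavy and 4044 ± 412 in low drinkers, a fold of 0.900 (0.807 to 1.004).

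On the other side, the smallest p belonged to SLC25A30, at 591 ± 71.0 normalized reads in heavy and 579 ± 103 in low drinkers, a fold of 1.08 (0.921 to 1.27). SLC25A23 (fold 1.10, 0.903 to 1.35), SLC25A21 (1.18, 0.747 to 1.85) and SLC25A44 (1.04, 0.932 to 1.16) followed. With age in place of cohort, the sign turned for SLC25A21 and SLC25A44 (log2 differences of −0.11 and −0.0065).

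Carriers that share a substrate gave no different picture. SLC25A5 had a fold of 0.961 (0.855 to 1.08) and so lay nearer to 1 than the other translocases, with intervals that overlap theirs. SLC25A12 had a fold of 1.03 (0.934 to 1.13) and SLC25A13 0.967 (0.707 to 1.32). SLC25A18 had 1.05 (0.867 to 1.27) and SLC25A22 1.09 (0.707 to 1.69). For the mitoferrins the fold was 0.95 (0.835 to 1.08) for SLC25A28 and 1.01 (0.785 to 1.29) for SLC25A37. For the pyrimidine carriers it was 0.953 (0.808 to 1.12) for SLC25A33 and 1.01 (0.922 to 1.11) for SLC25A36.

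**Figure D2:**
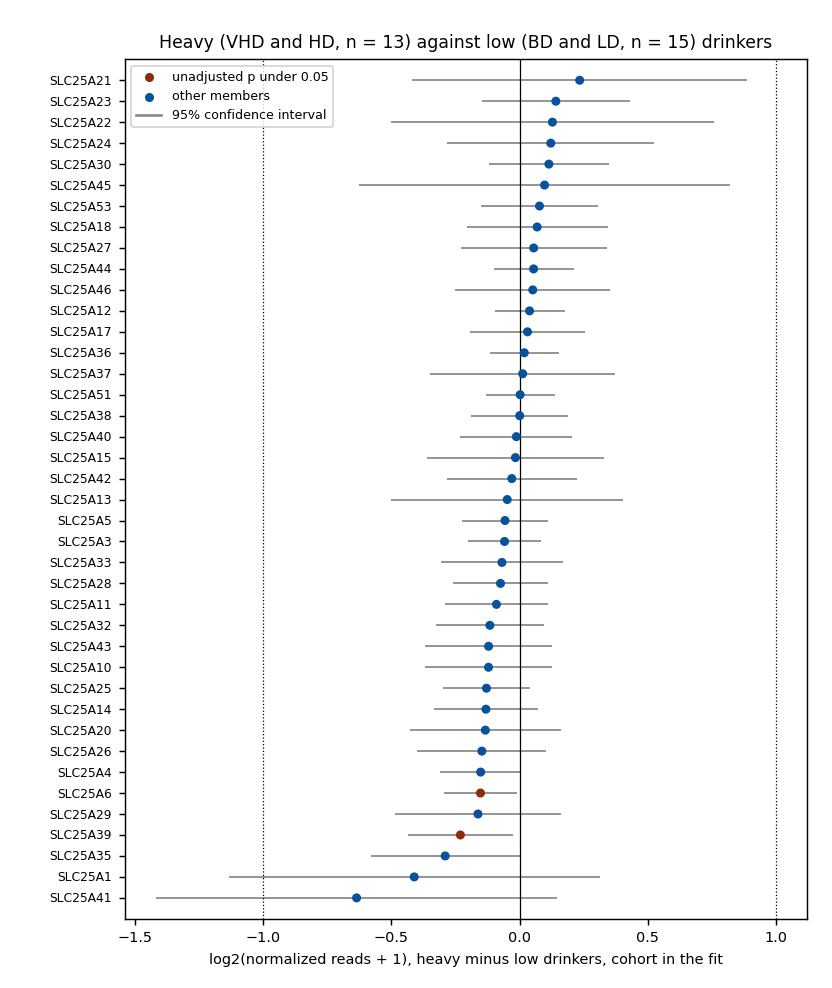
Fitted difference on the log2(normalized reads + 1) scale, heavy minus low drinkers with cohort in the fit, for 40 of the 41 carriers ordered by size; points are estimates and lines 95% confidence intervals, and dotted lines mark a 2-fold difference. SLC25A39 and SLC25A6 are the members with an unadjusted p under 0.05, and the intervals of SLC25A41 and SLC25A1 pass the 2-fold line.

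VHD animals set against LD animals alone gave the same count of 0 carriers past the threshold by limma, edgeR and DESeq2, against 0.0% of all genes by limma. At an unadjusted p under 0.05 there were 2, against 8.57% of all genes. SLC25A14, a relative of the uncoupling proteins that is abundant in brain, ran between 430 and 655 normalized reads (median 524) in VHD and between 550 and 783 (median 659) in LD animals. Its fold was 0.797 (0.670 to 0.948, unadjusted p = 0.0126, adjusted p = 0.536), and the ranges overlapped. The 8 oligodendrocyte markers ran to sums of 66024 to 125633 in VHD animals and 43176 to 93477 in LD animals, and with neuron, astrocyte and oligodendrocyte scores as covariates the fold of SLC25A14 was 0.890 (0.749 to 1.06). With glutamatergic and cholinergic scores as covariates it was 0.805 (0.680 to 0.953). SLC25A25 averaged 915 ± 29.8 normalized reads in VHD and 1030 ± 62.0 in LD animals, a fold of 0.850 (0.734 to 0.985, unadjusted p = 0.0318). The higher members with the smallest p were SLC25A13, at 678 ± 237 in VHD and 488 ± 116 in LD animals (fold 1.36, 0.945 to 1.95), and SLC25A18, at 1147 ± 268 in VHD and 859 ± 114 in LD animals (fold 1.22, 0.955 to 1.55). With neuron, astrocyte and oligodendrocyte scores as covariates, their folds were 0.993 (0.748 to 1.32) and 1.11 (0.853 to 1.45). With glutamatergic and cholinergic scores they were 1.25 (0.968 to 1.62) and 1.19 (0.958 to 1.48). Within cohort 7a, where 2 VHD and 3 LD animals meet, the log2 difference was −0.25 for SLC25A14, −0.14 for SLC25A25, 0.13 for SLC25A13 and 0.22 for SLC25A18, beside fitted values of −0.33, −0.23, 0.44 and 0.28 that also draw on cohort 5.

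Heavy drinkers of the HD category against LD animals also gave 0 carriers past the threshold, with 0.0% of all genes called and 0 carriers at an unadjusted p under 0.05 (3.96% of all genes). SLC25A1 came nearest, at 627 ± 130 normalized reads in HD and 868 ± 487 in LD animals, a fold of 0.633 (0.393 to 1.02). SLC25A25 had a fold of 0.893 (0.791 to 1.01), SLC25A23 1.12 (0.895 to 1.40) and SLC25A21 1.27 (0.766 to 2.12).

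In binge drinkers, 0 carriers passed the threshold (0.0% of all genes) and 2 had an unadjusted p under 0.05 (3.52% of all genes). SLC25A25 had 665, 1011, 962, 955 and 925 normalized reads in the BD animals, against 928 to 1146 (median 1026) in LD animals, a fold of 0.881 (0.783 to 0.992). SLC25A38 had 385, 556, 581, 603 and 580 in the BD animals, against 569 to 676 (median 605) in LD animals, a fold of 0.879 (0.775 to 0.998). In both genes the lowest value was BD animal 1, the shallowest library. SLC25A43 (fold 1.17, 0.975 to 1.39) and SLC25A39 (1.11, 0.951 to 1.29) were the higher members with the smallest p.

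Along the order LD, BD, HD, VHD taken as equal steps, 0 carriers passed the threshold (0.0% of all genes) and 3 had an unadjusted p under 0.05, against 4.85% of all genes. SLC25A25 changed by a fold of 0.943 per step (0.900 to 0.988), SLC25A14 by 0.936 (0.885 to 0.989) and SLC25A4 by 0.955 (0.912 to 0.9997). SLC25A18 (1.06, 0.982 to 1.15) and SLC25A23 (1.06, 0.973 to 1.15) had the smallest p among those above 1. The comparisons with LD share the LD animals, so that SLC25A25 being among the lowest p in each of them is not counted as repeated evidence.

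Shares within substrate pairs by category were close except where 1 member was variable. They were not adjusted for cohort or for marker scores. SLC25A13 held 23.0% ± 7.7 of the aspartate/glutamate pair in VHD animals, 14.8% ± 3.3 in HD, 17.2% ± 2.6 in BD and 16.8% ± 3.4 in LD animals. SLC25A18 held 52.7% ± 11.5 of the glutamate pair in VHD animals, 43.1% ± 14.5 in HD, 43.6% ± 12.7 in BD and 41.9% ± 11.3 in LD animals. SLC25A6 held between 47.5% ± 2.2 (LD) and 48.3% ± 2.3 (HD) of the translocases in every category. The mean share of SLC25A28 lay between 85.7% ± 3.8 (LD) and 87.3% ± 3.2 (VHD), and that of SLC25A33 between 58.6% ± 1.8 (HD) and 62.8% ± 5.2 (VHD).

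Genes that work beside the carriers were likewise without a call between heavy and low drinkers. Over 9 lists, the number of tested genes with a higher and a lower estimate was 1 and 6 for enzymes of the malate-aspartate and glycerol phosphate shuttles, 2 and 14 for ATP synthase and creatine kinase, 5 and 15 for the tricarboxylate cycle, and 3 and 8 for carnitine and fatty acid entry. It was 3 and 13 for iron-sulfur and haem synthesis, 4 and 7 for glutamate and ornithine metabolism, 2 and 10 for carrier import and cardiolipin, 7 and 15 for other membrane transporters and pores, and 1 and 2 for SLC25 family genes with other symbols. The list medians ran between −0.11 (ATP synthase and creatine kinase) and −0.03 (glutamate and ornithine metabolism) on the log2 scale, beside 0.00 for all genes. None of these 118 tested genes passed the threshold (limma), and 2 had an unadjusted p under 0.05 (1.69%, against 4.18% of all genes). SFXN2, a mitochondrial sideroflexin, averaged 120 ± 26.2 normalized reads in heavy and 149 ± 37.5 in low drinkers (fold 0.743, 0.592 to 0.933). ATP5G1, which encodes the c subunit of ATP synthase, averaged 966 ± 124 in heavy and 1125 ± 211 in low drinkers (fold 0.839, 0.707 to 0.997).

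The genes with the smallest p in the other lists spanned folds of 0.871 to 1.10, with intervals that reached 1. In the shuttles, MDH2 had a fold of 0.922 and GOT2 0.931. In the tricarboxylate cycle, OGDH had 0.901 and SUCLG2 0.890. HADHB (0.908) and ACADM (0.908) came first in fatty acid entry, CPOX (0.877) and FECH (1.10) in haem synthesis, and GLUD1 (0.871) in glutamate and ornithine metabolism. PTPMT1 (0.872) and TIMM10B (0.902) led carrier import and cardiolipin, ATP5F1 (0.881) was second among ATP synthase genes, ABCB8 (0.888) second among other transporters, and MTCH1 (0.909) and MTCH2 (0.974) led the family members with other symbols.

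Between cohorts, 0 of 41 carriers passed the threshold (limma F test, 0.0% of all genes; edgeR and DESeq2 also called 0 carriers) and 1 had an unadjusted p under 0.05 (9.41% of all genes). SLC25A6 averaged 4116 ± 563 normalized reads in cohort 4, 4465 ± 331 in cohort 5, 4366 ± 202 in cohort 7a and 4572 ± 265 in cohort 7b (unadjusted p = 0.0318, adjusted p = 0.493). SLC25A44, SLC25A39, SLC25A12, SLC25A17 and SLC25A1 followed, with adjusted p of 0.601, 0.601, 0.608, 0.629 and 0.636 in the same limma F test. SLC25A1 averaged 616 ± 127 in cohort 4, 1382 ± 1054 in cohort 5, 1182 ± 830 in cohort 7a and 853 ± 176 in cohort 7b. The heavy minus low difference did not differ between cohorts 4, 7a and 7b past the threshold for any carrier (0.0% of all genes), and 2 carriers, SLC25A43 and SLC25A44, had an unadjusted p under 0.05 (6.10% of all genes).

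Some carriers varied between animals with the marker levels of cell types in the block. Marker scores are the mean log2 value of a list of marker genes, centred over the 28 libraries, and slopes are log2 changes of a carrier per 1 SD of the score with cohort in the fit. A higher score can mean more cells of a type or more RNA per cell, which cannot be told apart in bulk tissue. Of the 41 carriers, 21 passed the threshold on at least 1 of 9 scores and 20 on none, against 59.4% of all genes on at least 1, so the count does not set the family apart. These 21 carriers made 63 calls over the scores. With each library left out in turn, 37 of the calls were kept in every fit and 26 were lost in at least 1. The 9 scores are not independent of each other, and what lies behind a slope was not tested.

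On the neuron score, 12 of 41 carriers passed the threshold (9 higher and 3 lower), against 39.1% of all genes (18.1% higher). SLC25A22 had the steepest slope, 0.57 ± 0.05 (SE; adjusted p = 1.13e-08, limma), and the slope was 0.55, 0.54, 0.65 and 0.50 within cohorts 4, 5, 7a and 7b. Among the others that rose with it were SLC25A46 (0.25 ± 0.03), SLC25A11 (0.15 ± 0.03), SLC25A23 (0.15 ± 0.05), SLC25A17 (0.13 ± 0.03), SLC25A44 (0.11 ± 0.02), SLC25A5 (0.09 ± 0.03) and SLC25A4 (0.08 ± 0.03). The mitoferrins SLC25A37 (−0.21 ± 0.06) and SLC25A28 (−0.10 ± 0.03) and the carrier SLC25A13 (−0.20 ± 0.08) fell with it. Without LD animal 1, a shallow library, the slope of SLC25A37 was −0.13 (adjusted p = 0.0774) and that of SLC25A4 0.05 (adjusted p = 0.163), and neither passed. The call of SLC25A13 was lost in 7 of 28 such fits (−0.14 without HD animal 5, adjusted p = 0.134), that of SLC25A5 without BD animal 2 or LD animal 1, and that of SLC25A23 without BD animal 2. SLC25A12, the aspartate/glutamate carrier known from neurons, was not among those called.

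Glutamatergic neurons, the excitatory cells of the cortex-like amygdala around the CeA, were followed by markers added after the first scores had been seen. SLC25A22 ran between 1004 and 2072 normalized reads (median 1319) in VHD, 1061 and 4239 (median 1401) in HD and 873 and 2979 (median 1622) in LD animals, and was 2573, 3685, 1119, 1164 and 1229 in the BD animals. The highest values, 4239 in HD animal 5 and 3685 in BD animal 2, came with 1208 and 758 normalized reads of NEUROD2, a transcription factor of cortical excitatory neurons. The lowest, 873 in LD animal 1, came with 0 NEUROD2 reads. On the glutamatergic score, 8 carriers passed the threshold (6 higher and 2 lower), against 30.1% of all genes (14.6% higher). SLC25A22 had a slope of 0.57 ± 0.06 (adjusted p = 2.96e-08) and SLC25A46 of 0.23 ± 0.04 (adjusted p = 0.000127). Within cohorts 4, 5, 7a and 7b the slope of SLC25A22 was 0.67, 0.36, 0.68 and 0.41, and that of SLC25A46 0.30, 0.08, 0.24 and 0.22. SLC25A11, SLC25A44 and SLC25A17 rose as well, and SLC25A37 and SLC25A13 fell. The call of SLC25A13 was lost in 15 of 28 fits with 1 library left out (adjusted p of at most 0.0910), that of SLC25A17 in 4 (at most 0.0581) and that of SLC25A37 without LD animal 1 (slope −0.13, adjusted p = 0.0922). SLC25A1 had a slope of −0.33 that did not pass, but passed in 6 of those fits.

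**Figure D3:**
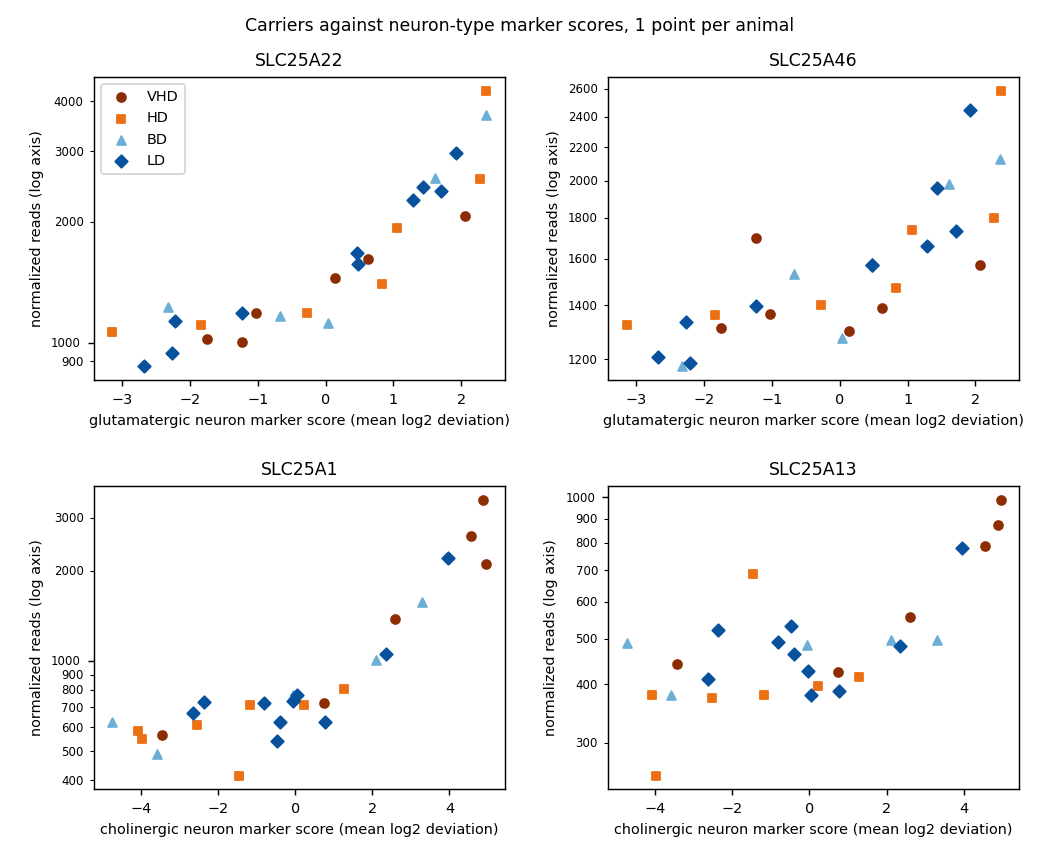
Normalized reads (log axis) of SLC25A22 and SLC25A46 against the glutamatergic neuron score and of SLC25A1 and SLC25A13 against the cholinergic neuron score; each point is 1 animal, coloured by category. SLC25A22 climbs to 4239 at the highest glutamatergic scores, and SLC25A1 climbs to 3435 in the animals with the highest cholinergic scores, 3 of them VHD.

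The citrate carrier SLC25A1 had its steepest slope on the markers of another neuron type. It was called on the astrocyte, oligodendrocyte and microglia scores as well. Cholinergic neurons are not a main class of the CeA but lie close to it in the basal forebrain, and they use acetyl-CoA to make acetylcholine. SLC25A1 ran between 565 and 3435 normalized reads (median 1740) in VHD, 415 and 809 (median 614) in HD and 541 and 2199 (median 727) in LD animals, and was 625.3, 489, 769, 1574 and 1003 in the BD animals. The VHD values overlapped those of every other category. The 4 animals with most SLC25A1 were VHD animal 4 (3435), VHD animal 5 (2601), LD animal 7 (2199) and VHD animal 3 (2103), and their levels of CHAT, the enzyme that makes acetylcholine, were 1566, 1450, 826 and 1687 normalized reads. HD animal 1, with the least SLC25A1, had 24.4 CHAT reads.

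On the cholinergic score, also examined after the first scores, 10 carriers passed the threshold (7 higher and 3 lower), against 20.1% of all genes (11.4% higher). SLC25A1 had a slope of 0.68 ± 0.07 (adjusted p = 2.01e-07), SLC25A13 of 0.38 ± 0.06 (adjusted p = 3.13e-05) and SLC25A27 of 0.23 ± 0.04 (adjusted p = 0.000121). Within cohorts 4, 5, 7a and 7b the slope of SLC25A1 was 0.13, 0.88, 0.70 and 0.73, so it was shallow in cohort 4. That of SLC25A13 was 0.06, 0.55, 0.35 and 0.52. Without VHD animals 3 and 4, whose scores lay farthest from the median, the slopes were 0.54 for SLC25A1, 0.28 for SLC25A13 and 0.17 for SLC25A27, each past the threshold. SLC25A29, SLC25A18, SLC25A32 and SLC25A40 also rose with the score, and SLC25A22 (−0.38), SLC25A23 (−0.16) and SLC25A44 (−0.08) fell. With 1 library left out, the call was lost in 15 of 28 fits for SLC25A44 (slope −0.06 without LD animal 7, adjusted p = 0.144), 6 for SLC25A18 (0.09 without VHD animal 5, adjusted p = 0.193), 5 for SLC25A40, 4 for SLC25A29 and 1 for SLC25A23 (without LD animal 7, adjusted p = 0.0561). The 4 cholinergic markers summed to 118 to 20415 normalized reads (median 8864) in VHD, 41.1 to 1473 (240) in HD, 55.2 to 5876 (553) in BD and 127 to 9042 (594) in LD animals. With glutamatergic and cholinergic scores as covariates, the VHD to LD fold of SLC25A1 was 1.13 (0.808 to 1.58), with neuron, astrocyte and oligodendrocyte scores it was 0.834 (0.460 to 1.51), and with no scores it was 1.35 (0.759 to 2.42).

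GABAergic neurons form most of the CeA, and on their scores most called carriers fell. On the GABAergic score, 7 carriers passed (2 higher and 5 lower), against 18.6% of all genes (8.86% higher), and on the CeA and striatal score 6 (1 higher and 5 lower), against 18.2% (8.88% higher). SLC25A22 fell by 0.53 per SD on the GABAergic score and by 0.47 on the other, SLC25A46 by 0.23 and 0.20, and SLC25A44 by 0.11 on both. SLC25A17 and SLC25A23 fell on both scores. SLC25A28, mitoferrin 2, rose by 0.12 on both, and SLC25A26 rose by 0.14 on the GABAergic score. With 1 library left out, the GABAergic call of SLC25A26 was lost in 10 of 28 fits (slope 0.11 without HD animal 5, adjusted p = 0.168), that of SLC25A23 in 6 and that of SLC25A28 without HD animal 5 (adjusted p = 0.0660), and SLC25A23 lost its call on the CeA and striatal score in 8. SLC25A35 on the GABAergic score and SLC25A26 and SLC25A38 on the CeA and striatal score came next by p and did not pass.

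**Figure D4:**
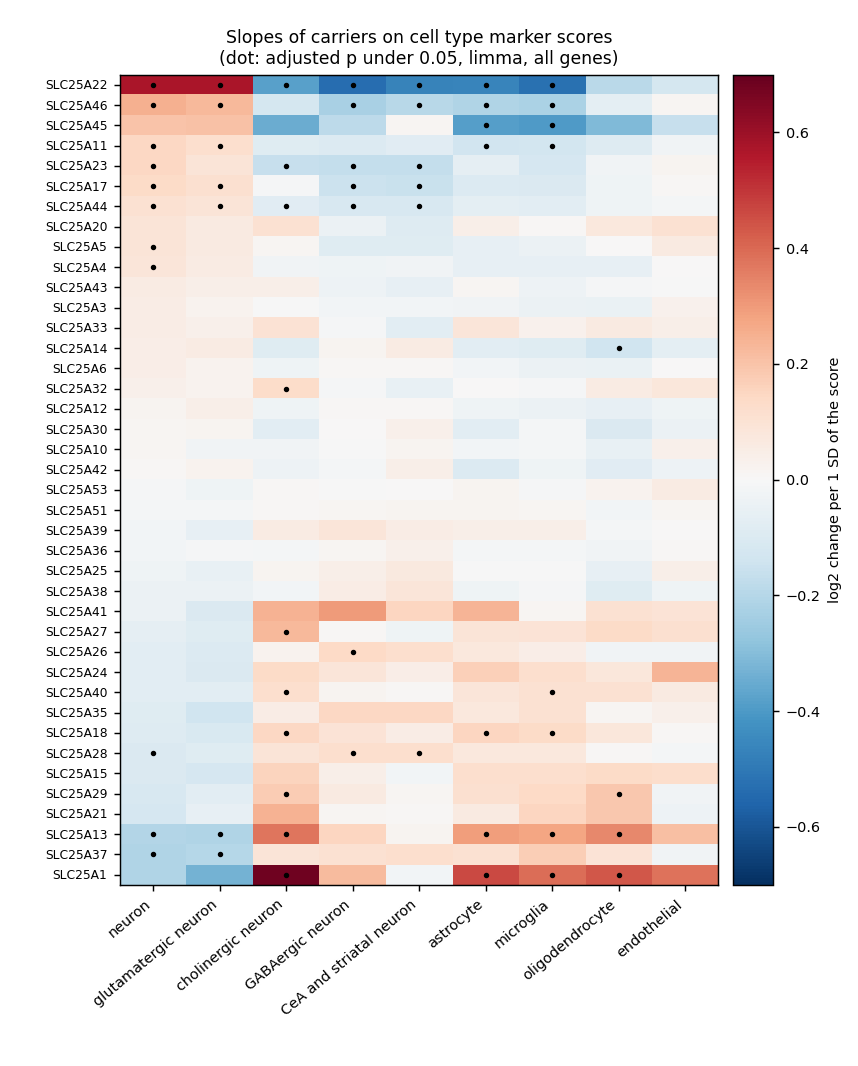
Slope of 40 of the 41 carriers (rows, ordered by the neuron slope) on 9 marker scores (columns), in log2 change per 1 SD of the score; dots mark an adjusted p under 0.05 by limma over all genes. SLC25A22 is at the top with 0.57 on the neuron score and negative on the glial ones, and SLC25A1 is at the bottom with 0.68 on the cholinergic score.

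On the astrocyte score 8 passed (3 higher and 5 lower), against 25.8% of all genes (14.2% higher), and on the microglia score 8 (4 and 4), against 24.8% (12.8% higher). SLC25A13, SLC25A1 and SLC25A18 rose with both, with astrocyte slopes of 0.29 ± 0.06, 0.46 ± 0.11 and 0.15 ± 0.04. SLC25A18 is known as the glutamate carrier of astrocytes, and its slope was 0.18, 0.25 and 0.17 within cohorts 5, 7a and 7b but −0.07 in cohort 4. SLC25A22, SLC25A46, SLC25A11 and SLC25A45 fell with both, and SLC25A22 had an astrocyte slope of −0.46 ± 0.08. Without VHD animal 5 the slope of SLC25A18 was 0.10 on the astrocyte score (adjusted p = 0.111) and 0.08 on the microglia score (adjusted p = 0.252), and SLC25A45 lost its call on both. On the microglia score the call was lost with 1 library left out in 12 of 28 fits for SLC25A18, 4 for SLC25A1, 2 for SLC25A45 and 19 for SLC25A40, which was called there too, and on the astrocyte score in 2 for SLC25A18. With neuron, astrocyte and oligodendrocyte scores in 1 fit, 1 carrier was called on the astrocyte score, and SLC25A18 kept a slope of 0.15 with an adjusted p of 0.189.

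On the oligodendrocyte score 4 carriers passed (3 higher and 1 lower), against 12.8% of all genes (7.41% higher). SLC25A13 (0.34 ± 0.06), SLC25A1 (0.43 ± 0.11) and SLC25A29 (0.19 ± 0.05) rose and SLC25A14 (−0.14 ± 0.03) fell. Without VHD animal 3 the calls of SLC25A1 (adjusted p = 0.0518) and SLC25A29 (adjusted p = 0.0597) were lost. VHD animals 3 and 4, with the most CHAT of all, were also the 2 farthest on this score, and without them 0 carriers passed: the slope was 0.22 for SLC25A13, 0.25 for SLC25A1, 0.17 for SLC25A29 and −0.09 for SLC25A14. SLC25A38 and SLC25A11, the next falling members, did not pass with all libraries in the fit. Without BD animal 1, the shallowest library, SLC25A38 passed (slope −0.086, adjusted p = 0.00833, limma). On the endothelial score 0 carriers passed, against 0.0154% of all genes (edgeR and DESeq2 also called 0 carriers), with 4 at an unadjusted p under 0.05, against 9.76%. SLC25A24, SLC25A1 and SLC25A13 had the smallest p above 0 and SLC25A14, SLC25A45 and SLC25A12 below it.

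Exon use was tested in the 35 carriers with at least 3 exons above the minimum. By limma's diffSplice F test 0 of 35 passed between heavy and low drinkers, against 0.0917% of 9817 genes, and 2 had an unadjusted p under 0.05 (1.73% of all genes): SLC25A43 (p = 0.0173) and SLC25A12 (p = 0.0229, adjusted p = 1.0). SLC25A44 (p = 0.268) and SLC25A36 (p = 0.414) came next in this F test. With only exons of at least 50 in at least 5 libraries, SLC25A12 passed (adjusted p = 0.00786).

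Of 276 exons of carriers tested singly, 1 passed (0.112% of 109212 exons). It is an exon of 116 bases of SLC25A12 at chr2b:58722209-58722324, in the coordinates of the exon table (no source used here names its build). Its score was 68 to 88 in 5 animals, HD animals 1 and 7, BD animal 2 and LD animals 3 and 4, and 1 to 11 in the other 23. Relative to the rest of the gene its log2 difference was 1.51 (adjusted p = 0.00272). The exon test pools spread over all exons of the gene, so this p does not measure the exon's own spread between animals. The high scores were found in 2 of 13 heavy and 3 of 15 low animals, and the 2 heavy ones are the only heavy animals of cohorts 4 and 7b. Without HD animal 1 the adjusted p was 0.250 and without HD animal 7 it was 1.0, and leaving out any other library kept the call (26 of 28).

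Such exons with separate low and high ranges were then looked for in all genes, after this exon had been seen. An exon was counted where its share of the gene left a gap of at least 0.4 on the log2 scale between animals, with at least 3 animals on each side. Only exons of genes with at least 3 listed exons, and with a median score of at least 40 on the high side, were eligible. It held for 11 of 196 exons of carriers, 5.61%, and for 3.35% of 67016 exons of all genes. The exon that prompted the search is among the 11, so the carrier share is not independent of it and does not set the family apart. SLC25A12 had 4 of the 11. Beside the exon of 116 bases, an exon of 54 bases scored 40 to 71 in 9 animals (3 HD, 1 BD and 5 LD) and 0 to 16 in the other 19, among them all 6 VHD animals. An exon of 81 bases scored 133 to 149 in 7 animals (3 HD and 4 LD) and 43 to 94 in 21. An exon of 140 bases scored 190 to 278 in 5 animals (4 HD and 1 LD) and 95 to 135 in 23. The sets of high animals differed from exon to exon, with LD animal 4 high in all 4. No VHD animal was high in any of the 4, and 4 of the 6 VHD animals belong to cohort 5. That cohort, with 4 VHD and 3 HD animals, had 0 or 1 high animals in each of these exons. They were HD animal 3 (54 and 140 bases) and HD animal 2 (81 bases). Cohort 7a held 2 VHD, 2 HD, 1 BD and 3 LD animals. Its high ones were HD animal 5 and LD animal 6 (54 bases), HD animal 6 and LD animals 6 and 7 (81 bases) and HD animal 6 (140 bases). With so few animals, category apart from cohort was not tested. SLC25A3 had 1 such exon, of 180 bases, which scored 605 to 889 in 7 animals (2 VHD, 2 HD and 3 LD) and 273 to 416 in the other 21. The rest were single exons of SLC25A14, SLC25A22, SLC25A32 and SLC25A33 and 2 exons of SLC25A46.

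**Figure D5:**
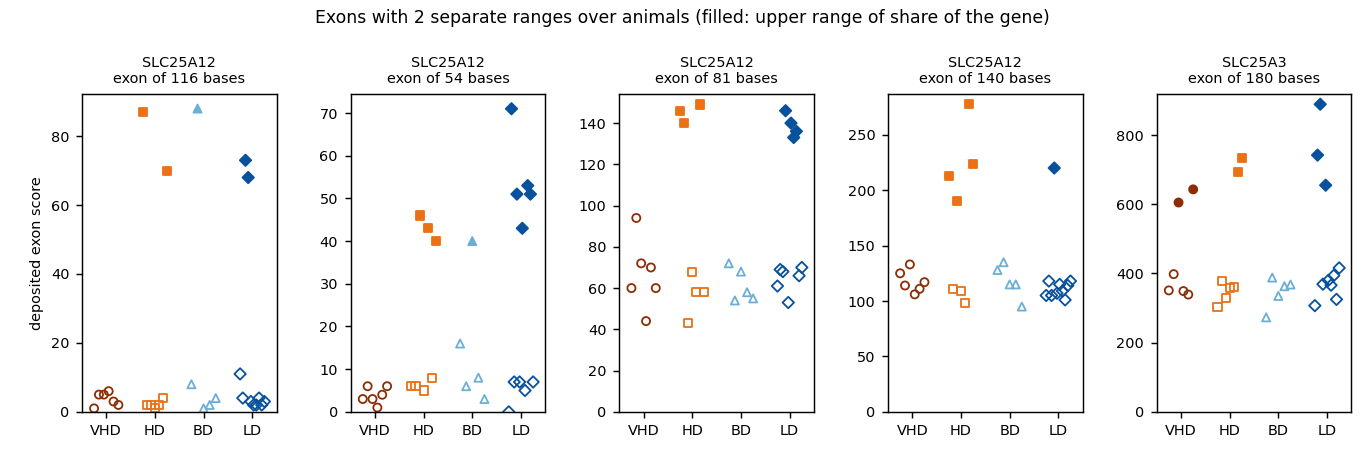
Deposited exon score of 4 exons of SLC25A12 and 1 of SLC25A3 by drinking category; each point is 1 animal and filled points are those above the gap in the exon's share of its gene. The 116 base exon sits at 68 to 88 in 5 animals and at 11 or less in the rest. The upper ranges of the 4 SLC25A12 exons hold no VHD animal, and those of 81 and 140 bases no BD animal either. How often such exons of other genes lack VHD animals was not counted.

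SLC25A3 is known for a pair of mutually exclusive exons, one used in heart and skeletal muscle and the other in most tissues. Adjacent exons of 125 and 122 bases had median scores of 6 and 578, and the 125 base exon made up 0% to 3.40% of both (median 0.967%). By category its median share was 0.520% in VHD, 1.10% in HD, 0.858% in BD and 0.913% in LD animals, with ranges that overlapped.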

How the data were processed

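Stranded RNA libraries depleted of ribosomal RNA were made from 28 animals, per the labels' protocols. The submitters' processing notes name CASAVA, FastQC, STAR 2.3.0e and edgeR. No source used here names the genome build, the annotation or the counting of shared reads. The gene values deposited by the authors are a signal, reads over exons times 1 upper-quartile factor per library. The exon values deposited by the authors are a score, the same quantity as whole numbers. Each table has 30 columns, 2 of which match no labelled sample and were left out. The recovered count was whole, within 0.02 reads, for 100% of values. In VHD animal 4, 1 read is worth nearly 1 unit, so the recovery could not be judged there.

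Genes at 10 or more in at least 5 libraries were tested on log2(value + 1) with limma 3.58.1 (R 4.3.3), a mean-variance trend, cohort as a term and Benjamini-Hochberg adjustment over all genes (threshold 0.05, two-sided). Intervals are 95%. Folds on this scale understate changes of low genes. Cohort 5 has no low drinkers: it adds only to the spread in heavy against low, but enters the category and trend estimates through its VHD and HD animals. edgeR 4.0.16 and DESeq2 1.42.0 were run on recovered reads. Exon use was tested with diffSplice where 3 or more exons passed the minimum. p-values of the gene tests measure spread between animals. Those of diffSplice use a spread pooled over the exons of a gene, so they do not measure the spread of a single exon. The fits were tested on simulated data. Symbols of 40 of the 41 carriers matched the reference list, the exception being SLC25A6. Members, lists and tests were chosen with earlier results of these data known. The rule for named genes took the 4 carriers with the smallest p in each direction for heavy against low drinkers, 2 for each category and the trend, 6 for cohorts, 3 in each direction for each score, 4 for exon use and 2 genes per list, plus carriers that share a substrate. The category fits of carriers that share a substrate are given as shares. Alternatives were other pseudocounts, filters, tools, scaling, cohort terms, covariates and left-out libraries. Some items that the rule takes, 1 of the 41 carriers among them, enter the counts and are not reported here.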

Additional observations from a re-analysis of the deposited data

Results flagged for a closer look

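Values of 1 animal that stood apart from the rest of its category (a gap to the nearest animal larger than Dixon's 95% limit allows) were found in 17 of 164 combinations of a carrier and a category. Chance flags about 1 in 20 of such groups, or about 8. The shallow libraries BD animal 1 and LD animal 1 gave 3 and 4 of them; the part of depth in these values was not tested.

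In LD animals the high values were SLC25A1 at 2199 and SLC25A13 at 782, both in LD animal 7, and SLC25A36 at 1917, SLC25A37 at 168 and SLC25A40 at 709, all in LD animal 1, where SLC25A6 was low at 3351. In HD animals they were SLC25A13 at 687 and SLC25A15 at 150.4 in HD animal 1, where SLC25A6 was low at 3230, and SLC25A46 at 2584 in HD animal 5. In BD animals SLC25A25 was low at 665 and SLC25A38 at 385 and SLC25A35 high at 176 in BD animal 1, and SLC25A13 was low at 380.1, SLC25A39 low at 489.8 and SLC25A45 high at 90.2 in BD animal 2. In VHD animals SLC25A5 was high at 2272 in VHD animal 3. All are normalized reads.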

How the results depend on the processing

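The number of carriers past the threshold was 0 in every category, trend, cohort and heavy-by-cohort comparison under every alternative run, with each library left out included. For all genes, DESeq2 called 1 (heavy against low), 4 (VHD against LD), 1 (HD against LD), 19 (cohorts) and 1 (heavy by cohort), age in place of cohort called 1 (HD against LD) and no filter 26 (heavy by cohort). Leaving out 1 library gave 0 to 1 (VHD or HD against LD), 0 to 40 (cohorts) and 0 to 77 (heavy by cohort, which could not be fitted without the 3 shallowest libraries or without HD animal 1 or 7).

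Without the 2 libraries farthest on the score, carriers called were 3 (GABAergic; 1338 of all genes), 5 (astrocyte; 1403) and 0 (oligodendrocyte; 240), and all genes called were 1519 (cholinergic), 1575 (microglia) and 0 (endothelial). With 3 scores in 1 fit they were 1 (astrocyte; 239) and 2 (oligodendrocyte; 966). For the oligodendrocyte score DESeq2 called 8 carriers and the fit without the 3 shallowest libraries 7, beside 4 by limma on all libraries (12.8% of all genes). The counts over all genes in the DESeq2 fit and in the fit without shallow libraries are not reported here. Those carrier counts therefore do not set the family apart. For the endothelial score all genes called were 76 (DESeq2), 7 (edgeR), 1 (TMM scaling) and 6 (without the 3 shallowest). Leaving out 1 library gave 4 to 8 (GABAergic; 1568 to 2738 of all genes), 5 to 12 (microglia) and 2 to 6 carriers (oligodendrocyte; 682 to 2173), and 1841 to 3616 (astrocyte), 1726 to 2977 (cholinergic) and 0 to 16 (endothelial) of all genes. The range over all genes for the microglia score is not reported here, so its range of carriers does not set the family apart. Exon use: 1 carrier (SLC25A12) with exons of at least 50, 4 genes with a pseudocount of 8, and 6 to 16 genes with 1 library left out.

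The sign of a log2 difference of heavy minus low turned for SLC25A21 (no cohort term −0.083, age −0.11, cohort 7a −0.045), SLC25A44 (age −0.0065), SLC25A5 (without the 3 shallowest 0.0038, cohort 7a 0.030), SLC25A12 (no cohort term −0.036), SLC25A13 (edgeR 0.0024, DESeq2 0.0095, no cohort term 0.065, age 0.086, 3 scores 0.011, 2 neuron scores 0.15), SLC25A18 (cohort 7a −0.086), SLC25A22 (no cohort term −0.11, age −0.12, 2 neuron scores −0.11), SLC25A28 (no cohort term 0.0092, age 0.0089), SLC25A37 (edgeR −0.0094, DESeq2 −0.0028, no cohort term −0.10, age −0.020, without the 3 shallowest −0.0985, cohort 7a −0.19) and SLC25A36 (cohort 7a −0.026). It also turned for SLC25A13 in VHD against LD (3 scores −0.0105), SLC25A23 in HD against LD (2 neuron scores −0.0395), SLC25A1 on the glutamatergic score (both neuron scores in 1 fit 0.0215) and, on the endothelial score without its 2 farthest libraries, SLC25A14 (0.0014), SLC25A45 (0.046) and SLC25A12 (0.0051). With 1 library left out heavy minus low spanned −0.24 to 0.098 (SLC25A13), −0.044 to 0.15 (SLC25A18), −0.061 to 0.28 (SLC25A22), −0.0088 to 0.039 (SLC25A36), −0.0985 to 0.065 (SLC25A37) and −0.0897 to 0.0038 (SLC25A5). None of these differences was called, and the cause was not tested. No paired analysis was possible because the labels carry no replicate numbers shared between categories.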
